A study of Homo sapiens with 8 samples.

Results

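The comparison described here is the response of Mock-transfected HS578T cells to TGF-β1, taken from 4 of the 8 RNA sequencing libraries of the series: 2 Mock libraries with TGF-β1 and 2 Mock libraries without it. HS578T is an established human breast cancer cell line. The members were chosen by the sample titles. Treated and control cells alike carried a GFP (green fluorescent protein) plasmid, 25 µg per transfection. From 24 h after transfection they spent another 24 h in assay medium, without additions in the control and with 10 ng/ml TGF-β1 in the treated cells. The other 4 libraries came from cells that overexpressed the transcription factor HSF2 (HSF2oe), with the same 2 treatments, and are used here only to share the estimate of spread and for the comparison near the end. A treatment field in the sample labels gives DMSO for every Mock library, which goes against the titles and the design text. Each group's pair is described as biological replicates, with no statement of separate cultures, so p-values measure only the spread between these libraries.

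TGF-β1 is a secreted cytokine that binds a complex of type II and type I receptor kinases (TGFBR2 and TGFBR1) at the cell surface. The receptors phosphorylate SMAD2 and SMAD3, which join SMAD4, enter the nucleus and bind DNA with partner factors. In cells of mesenchymal character the pathway is known for matrix production, for contractile cytoskeleton genes and, in many epithelial lines, for a block of the cell cycle in G1.

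Total counts were 25241347 and 34336107 in the control libraries and 17427645 and 23726768 with TGF-β. Levels are given as CPM, counts scaled to library totals adjusted by TMM factors, and at these depths a count of 0 allows up to 0.0851 to 0.195 CPM (3 counts, counting error only). The libraries carried the markers of a mesenchymal breast line. VIM, encoding the filament protein vimentin, was between 3180 and 3660 CPM, and the receptor tyrosine kinase gene AXL between 1660 and 1770 CPM. Of 16 luminal and epithelial markers, 6 were abundant enough to test, and 8 had at most 3 counts in each Mock library. EPCAM, an epithelial adhesion gene, had 0 to 2 counts, and the hormone receptor gene PGR and the trefoil factor gene TFF1 had none. The source label calls the cells epithelial. Other members of the list were present: the keratin gene KRT18 was between 237 and 275 CPM, its partner KRT8 between 19.9 and 26.1 CPM, and the luminal transcription factor gene GATA3 between 7.58 and 8.27 CPM. The summed level of the luminal list was 303.8 and 275.6 CPM in control and 304.5 and 306.6 CPM with TGF-β, most of it from KRT18, and no tested member passed the test. Blood and endothelial markers summed to 9.18 and 8.48 CPM in control and 6.25 and 6.545 CPM with TGF-β. In bulk RNA of this kind, fewer cells of a type and less RNA per cell cannot be told apart.

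Of 16008 genes tested, 1172 were higher with TGF-β (7.32%) and 1040 were lower (6.5%) at an adjusted p below 0.05 (edgeR, quasi-likelihood F test, Benjamini-Hochberg). "Rose" and "fell" below refer to this threshold, and fold changes are log2 values of TGF-β over control with their standard error. At least a 2-fold change was reached by 321 of the genes that rose (2.01% of those tested) and 254 of those that fell (1.59%). At least a 4-fold change was reached by 83 and 58. Genes that rose held 22.6% and 24.2% of all counts in the control libraries and 34.0% and 35.7% in the TGF-β libraries. FN1, COL1A1, TGFBI and CCN2 are among them. The scaling therefore bears on the split of the calls. With library totals alone in place of TMM factors the median gene shifted by -0.27, and 608 genes were higher and 3885 lower. The first principal component of the 4 libraries held 56.4% of their variance and separated the control libraries (-38.5 and -31.6) from the TGF-β libraries (35.7 and 34.3). The second (27.2%) separated the 2 TGF-β libraries from each other (33.5 and -33.3).

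**Figure D1:**
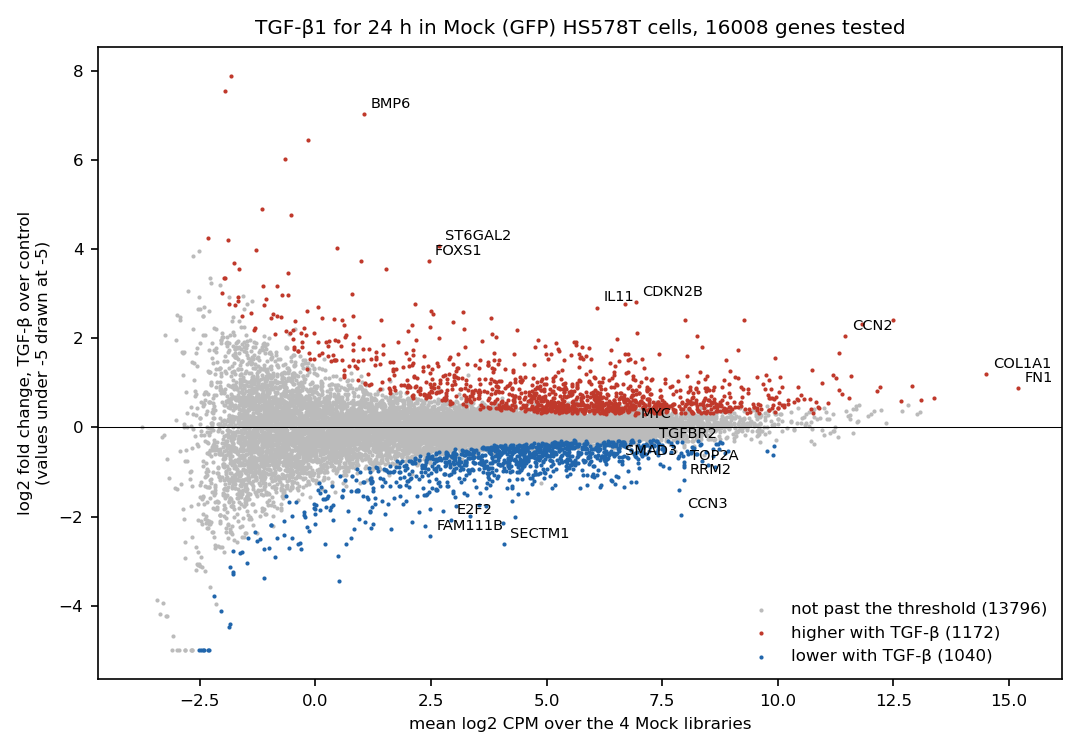
Log2 fold change of TGF-β over control against the mean log2 CPM of the 4 Mock libraries, one point per gene tested. Red points (1172) were higher and blue points (1040) lower at an adjusted p below 0.05, and FN1 and COL1A1 stand at the right edge among the most abundant genes.

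Promoters of 5 genes that changed are shown because each carries short motifs of a factor family that binds genes of its kind. They come from RefSeq (GRCh38.p14), read in the direction of transcription, and the capitals mark the motifs on either strand. CAGAC is the SMAD box and TGACTCA the AP-1 site. GGAATG is the core bound by TEAD factors, TTTCGCG and TTTGGCG are forms bound by E2F factors, and TTTGAA is the cell cycle homology element. CCAAT is bound by NF-Y, and a pair of TTTC blocks with any 2 bases between them is the interferon-stimulated response element. The windows lie at chr19:55370514-55370613 (minus strand) for IL11, chr6:131951443-131951572 (minus) for CCN2, chr1:23531234-23531333 (minus) for E2F2, chr15:59105016-59105145 (plus) for CCNB2 and chr10:89392473-89392572 (plus) for IFIT1. The first 3 are upstream of the gene in both annotations, while the count table starts CCNB2 and IFIT1 inside their windows.
IL11: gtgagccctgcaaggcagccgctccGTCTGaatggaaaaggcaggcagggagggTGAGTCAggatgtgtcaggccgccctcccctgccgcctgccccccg
CCN2: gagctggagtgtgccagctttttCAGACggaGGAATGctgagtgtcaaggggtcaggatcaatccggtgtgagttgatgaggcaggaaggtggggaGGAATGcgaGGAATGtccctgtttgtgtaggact
E2F2: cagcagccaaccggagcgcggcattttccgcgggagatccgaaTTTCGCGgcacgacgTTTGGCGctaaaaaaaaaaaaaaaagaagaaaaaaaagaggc
CCNB2: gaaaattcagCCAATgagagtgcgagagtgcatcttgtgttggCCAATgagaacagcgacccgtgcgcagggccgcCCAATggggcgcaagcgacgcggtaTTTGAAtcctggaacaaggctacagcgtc
IFIT1: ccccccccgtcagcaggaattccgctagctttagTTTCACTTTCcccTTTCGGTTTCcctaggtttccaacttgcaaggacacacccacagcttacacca

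Among the TGF-β family ligands, 17 of 28 members had enough counts to test, of which 9 rose and 3 fell, with a median log2 change of 0.79 against -0.004 over all genes. TGFB1 (ENSG00000105329.11, chromosome 19, 41301587 to 41353922, minus strand, GRCh38), encoding the cytokine that was added, stood at 294.3 and 347.3 CPM in control and 740 and 810.1 CPM with TGF-β. Both treated libraries were more than 2-fold above both controls, and the change was 1.27 ± 0.12 (edgeR, adjusted p = 1.39e-05). Per length, TGFB1 was the highest of the 3 TGF-β genes in control, at 425 TPM (counts per gene length, scaled to one fixed total) against 183 for TGFB2 and 4.14 for TGFB3. TGFB2 rose by 0.32 ± 0.09, a call lost without the low-count filter (edgeR, adjusted p = 0.06), with library totals alone (0.684) and without any 1 of the 4 libraries (0.087 to 0.225). TGFB3 rose by 1.64 ± 0.43, a call lost without control 1 (edgeR, adjusted p = 0.16), without TGF-β 2 (0.282) and in DESeq2 (0.154).

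The activin genes moved apart. INHBA, encoding the activin A subunit (chromosome 7, 41667168 to 41705834, minus strand), was at 290.3 and 328.8 CPM in control and 951 and 1123 CPM with TGF-β, a rise of 1.74 ± 0.11. INHBE, another activin subunit gene, rose by 1.66 ± 0.27. INHBB, encoding the activin B subunit, was at 107.3 and 83.8 CPM in control and 51.4 and 37.8 CPM with TGF-β, and fell by 1.10 on the log2 scale (SE 0.20). The bone morphogenetic protein genes were divided too. BMP6 (chromosome 6, 7726099 to 7881728, plus strand) had 4 and 5 counts in control and 296 and 398 counts with TGF-β, a ratio of pooled normalised counts of 134. GDF6 rose by 1.92 ± 0.12, while BMP4 went from 27.3 and 29.4 CPM to 10 and 12.1 CPM (-1.35 ± 0.20) and GDF5 fell by 1.40 (SE 0.35). The GDF5 call was lost without control 2 (edgeR, adjusted p = 0.0904) or TGF-β 1 (0.112), and 35.4% of the gene's exonic sequence is also annotated to another gene. LEFTY2, a secreted inhibitor of nodal signalling, had 0 counts in both control libraries and 11 and 29 counts with TGF-β, at least 23.1-fold higher against a limit of 3 counts over the control group.

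Of 13 tested receptor and coreceptor genes, 2 rose and 1 fell (2 and 3 with library totals alone), a share near that of all genes for the falls (7.69% against 6.5%) and 15.4% against 7.32% for the rises. TGFBR1, the type I receptor, was at 30.1 and 41.2 CPM in control and 33.3 and 45.9 CPM with TGF-β (0.15 ± 0.18), with overlapping groups. TGFBR2, the type II receptor, was at 164 and 195.8 CPM in control and 126.2 and 151.7 CPM with TGF-β (-0.37 ± 0.12, edgeR, adjusted p = 0.0557), so its lower level did not pass. Per length TGFBR2 (114 TPM in control) exceeded TGFBR1 (22.6 TPM). The genes that rose were ACVR1 (0.68 ± 0.11) and BMPR2 (0.72 ± 0.13), a type I and the type II receptor of bone morphogenetic proteins. TGFBR3, the coreceptor betaglycan, went from 13.8 and 11.6 CPM to 7.16 and 7.08 CPM, a fall whose call was lost without control 1 (edgeR, adjusted p = 0.0789) or TGF-β 2 (0.0718).

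Of 11 genes listed for latency and activation of the ligand, which do not all store or free it, 7 rose (7.32% of all genes did) and 1 fell. Their median was 0.82, and with library totals alone 6 rose and 3 fell. LTBP2, a microfibril protein of the latent TGF-β binding family, was at 146.2 and 155.6 CPM in control and 645.3 and 600.7 CPM with TGF-β (2.05 ± 0.13). LTBP1 rose by 0.86 ± 0.16, LTBP3 by 0.63 ± 0.10, the pro-ligand protease gene FURIN by 0.82 ± 0.09 and the integrin αV gene ITGAV by 1.05 ± 0.12. EMILIN1, also on the list, rose by 0.87 ± 0.12. ITGB8, encoding the β8 integrin chain that activates latent TGF-β with αV, went the other way, from 8.43 and 9.36 CPM to 2.54 and 2.26 CPM (-1.90 ± 0.26). THBS1, encoding thrombospondin 1, rose by 0.90 ± 0.25. Its libraries were spread within each group (4015 and 3059 against 7978 and 5226 CPM), and its call was lost in 5 alternatives, among them without control 2 (edgeR, adjusted p = 0.175) or TGF-β 1 (0.24). Of 9 secreted antagonists 1 rose (11.1%, against 7.32% of all genes) and none fell. It was FSTL3, which binds activins, from 97.4 and 97.3 CPM to 305.5 and 306.2 CPM (1.65 ± 0.09).

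In the SMAD list, 4 of 23 tested genes rose (17.4%, against 7.32% of all genes) and 2 fell (8.7%, against 6.5%). With library totals alone 3 rose and 4 fell. The signal-carrying SMAD3 (ENSG00000166949.17, chromosome 15, 67063763 to 67195173, plus strand) fell, from 131 and 117 CPM in control to 73.9 and 72.4 CPM with TGF-β (-0.76 ± 0.10; edgeR, adjusted p = 0.000155). The 4 genes that rose with TMM factors restrain the pathway, but other restraining members of the list, among them SMAD6, SMURF1, SMURF2 and BAMBI, did not pass. PMEPA1, which binds receptor-activated SMADs at membranes, was at 52.5 and 67.8 CPM in control and 236.5 and 283.7 CPM with TGF-β (2.11 ± 0.14). SMAD7, the inhibitory SMAD, rose from 31.4 and 32.1 CPM to 56.6 and 59.2 CPM (0.87 ± 0.14), and the corepressor gene SKIL from 28.1 and 28.3 CPM to 50.7 and 52.7 CPM (0.88 ± 0.09). SKI rose by 0.39 ± 0.09, a call lost with library totals alone (edgeR, adjusted p = 0.337) and without any 1 of the libraries (0.0585 to 0.076). NEDD4L, a ubiquitin ligase of SMADs, fell by 0.53 (SE 0.16), a call also lost without control 1 (edgeR, adjusted p = 0.245), control 2 (0.0598) or TGF-β 2 (0.303). SMAD2 (0.01 ± 0.09) and SMAD4 (0.02 ± 0.10) did not pass. In the list of ID genes and targets of bone morphogenetic protein signalling, 2 of 7 rose and 2 fell, 28.6% in each direction. HES1 (0.89 ± 0.12) and HEY1 (1.18 ± 0.23) rose, the HEY1 call being lost without TGF-β 2 (edgeR, adjusted p = 0.0552), ATOH8 fell (-1.18 ± 0.17) and ID1, an inhibitor of differentiation, fell (-0.98 ± 0.22) with a call lost without control 1 (edgeR, adjusted p = 0.0846) or TGF-β 2 (0.135). ID3 was at 72.9 and 64.3 CPM in control and 79.4 and 73.6 CPM with TGF-β and did not pass.

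**Figure D2:**
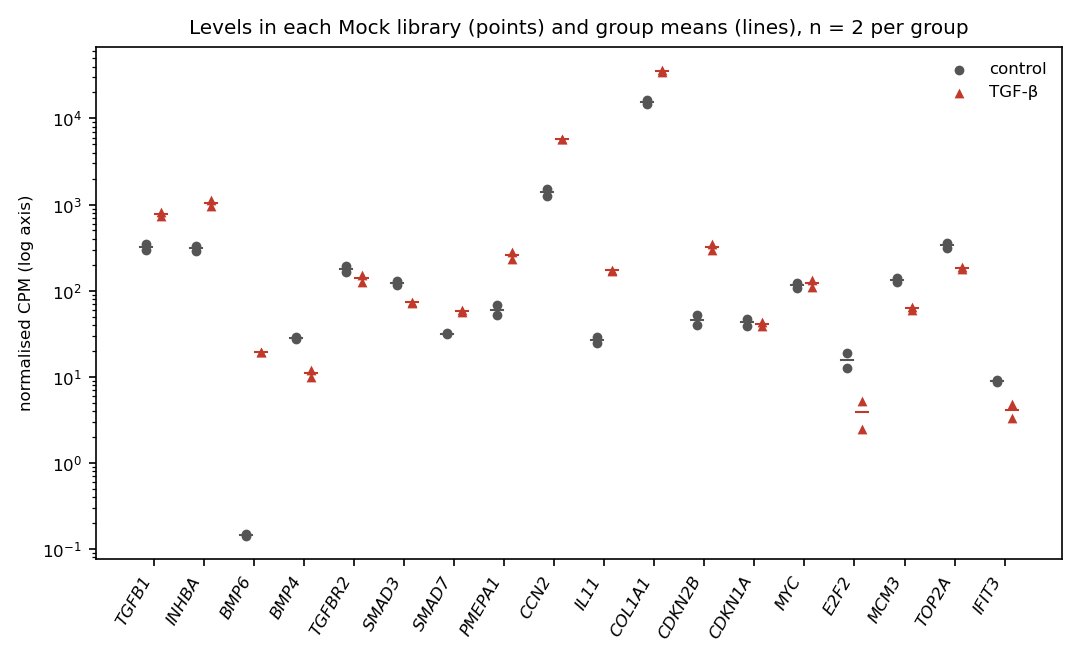
Normalised CPM on a log axis of 18 named genes in each Mock library, with grey circles for control, red triangles for TGF-β and lines at the mean of 2 libraries. BMP6 rises from near the limit that a count of 0 allows, CCN2 and COL1A1 rise at high levels, and the CDKN1A and MYC groups overlap.

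Transcription factors of epithelial-mesenchymal transition were divided, with 5 of 17 rising and 3 falling, or 4 and 5 with library totals alone. Under TMM scaling their shares were 29.4% and 17.6%, against 7.32% and 6.5% of all genes. SNAI1 was at 0.64 and 0.77 CPM in control (17 and 27 counts) and 3.32 and 4.63 CPM with TGF-β, a rise of 2.49 ± 0.33. TCF4 rose from 11.1 and 18.2 CPM to 47.7 and 54.8 CPM (1.79 ± 0.19), SOX4 by 1.10 ± 0.16 and ZEB1 by 0.60 ± 0.11. TWIST1 fell from 20.3 and 22.2 CPM to 11.6 and 12.3 CPM (-0.83 ± 0.13), and ZEB2, the paralog of ZEB1, fell by 0.53 (SE 0.10). Of 23 immediate early factors, 5 rose and 1 fell (21.7% and 4.35%, against 7.32% and 6.5% of all genes). With library totals alone 4 rose and 6 fell. JUNB, an AP-1 subunit, went from 49.3 and 51.2 CPM to 135.9 and 137.3 CPM (1.44 ± 0.09), while the AP-1 subunit gene FOSL1 went from 207 and 146 CPM to 89.9 and 61.5 CPM (-1.23 ± 0.19). EGR2 had 2 and 21 counts in control and 81 and 135 with TGF-β, so its 16.3-fold rise rests on an uneven control pair. FOXS1, a forkhead factor gene, rose from 0.97 and 1.99 CPM to 20.8 and 19.7 CPM (3.73 ± 0.34).

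Secreted signals outside the TGF-β family rose in several families. IL11 (ENSG00000095752.7, chromosome 19, 55364382 to 55370463, minus strand), a cytokine of the IL-6 family whose promoter is printed above with an AP-1 site and a SMAD box, went from 29 and 24.9 CPM to 176 and 171 CPM (2.68 ± 0.11; edgeR, adjusted p = 1.21e-08). IL6 rose by 1.04 ± 0.13 and LIF by 0.72 ± 0.11, and the receptor gene LIFR fell by 0.66 (SE 0.12). Within the IL-6 family list 5 of 16 rose and 2 fell, and 3 rose without control 1, control 2 or TGF-β 2. The IL-6 family shares were 31.2% and 12.5%, against 7.32% and 6.5% of all genes. Of the angiogenic and fibroblast growth factor genes, 8 of 23 rose (34.8%) and 2 fell (8.7%). FGF2 rose by 0.96 ± 0.11 and PGF by 0.87 ± 0.10. The platelet-derived growth factor receptors moved apart. PDGFRB rose from 207.4 and 267 CPM to 451.2 and 552.7 CPM (1.08 ± 0.14), while PDGFRA went from 123.6 and 130.7 CPM to 80.6 and 82.2 CPM, a call lost without any 1 of the libraries (edgeR, adjusted p = 0.0803 to 0.127).

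In the Wnt list 9 of 36 rose and 3 fell, or 6 and 9 with library totals alone and 5 and 4 without control 1. Under TMM scaling the Wnt shares were 25.0% and 8.33%, against 7.32% and 6.5% of all genes. The ligands WNT5A (0.92 ± 0.10), WNT5B (1.00 ± 0.12) and WNT11 (2.45 ± 0.19) rose, WNT11 from 6.48 and 5.45 CPM to 28.8 and 36.2 CPM. AXIN2, a feedback target of β-catenin signalling, fell by 0.98 (SE 0.24), a call lost without control 2 (edgeR, adjusted p = 0.121) or TGF-β 1 (0.0997). Of 19 Notch genes 5 rose (3 without TGF-β 2), the ligand JAG1 from 391 and 364 CPM to 680 and 606 CPM (0.77 ± 0.12), the receptor NOTCH3 (1.05 ± 0.15) and the target HES1 (0.89 ± 0.12) among them. The Notch share of rises was 26.3%, against 7.32% of all genes, and none fell. In the IGF axis 5 of 15 rose and 2 fell (33.3% and 13.3%, against 7.32% and 6.5% of all genes). With library totals alone 4 rose and 3 fell. IGFBP3, which binds insulin-like growth factors, rose from 487 and 684 CPM to 1436 and 2006 CPM (1.55 ± 0.26), and the receptor IGF1R rose by 1.06 ± 0.11. IGFBP1 (-1.31) and IGFBP4 (-0.55) fell, with calls lost in 5 and 2 alternatives. Axon guidance genes split into 10 that rose and 8 that fell of 51 (19.6% and 15.7%, against 7.32% and 6.5% of all genes). With library totals alone the split was 7 and 14. SEMA3C (1.08 ± 0.13) and the receptor PLXNA4 (1.81 ± 0.18) rose while SEMA3A (-1.29 ± 0.25) and SEMA3D (-1.44 ± 0.26) fell. EGFR, at 288 and 287.6 CPM in control and 224.8 and 211.9 CPM with TGF-β, did not pass (edgeR, adjusted p = 0.0946).

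Rises outnumbered falls in each matrix list below under TMM scaling. Of the collagen chains 13 of 30 rose and 2 fell. COL1A1 (ENSG00000108821.14, chromosome 17, 50184101 to 50201632, minus strand), a chain of fibrillar collagen I, stood at 14546 and 16539 CPM in control and 34607 and 36208 CPM with TGF-β (1.19 ± 0.13). COL4A1, a basement membrane chain, rose from 1281 and 1637 CPM to 4205 and 5010 CPM (1.66 ± 0.14), COL7A1 by 1.14 ± 0.12 and COL5A1 by 1.14 ± 0.13. COL17A1, a transmembrane collagen of hemidesmosomes, went from 3.63 and 3.74 CPM to 0.78 and 0.74 CPM (-2.28 ± 0.35). The enzymes that fold, trim and crosslink collagen followed with 14 of 31 rising and 1 falling, among them the lysyl oxidase gene LOX (0.97 ± 0.11), the prolyl hydroxylase gene P4HA2 (0.89 ± 0.11), the collagen chaperone gene SERPINH1 (0.66 ± 0.11) and the transglutaminase gene TGM2 (1.54 ± 0.13). Without control 1 or TGF-β 2 the collagen chain rises numbered 8 and 9, and the processing rises 7 and 6. Of the processing genes, 9 rose and 1 fell with library totals alone.

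Of 16 elastic fibre genes 9 rose and none fell, fibrillin 1 (FBN1) by 0.99 ± 0.13 and MFAP4 from 6.67 and 13.2 CPM to 33.9 and 57 CPM (2.18 ± 0.36). Of 30 adhesive and matricellular glycoproteins 14 rose and 2 fell, or 8 and 7 with library totals alone and 9 rises without control 1 or TGF-β 2. Fibronectin (FN1) was at 25620 and 30265 CPM in control and 48146 and 54264 CPM with TGF-β (0.87 ± 0.14), and its call missed the threshold narrowly in limma on the deposited log2 CPM (adjusted p = 0.0553). TGFBI rose from 2250 and 2772 CPM to 12459 and 14233 CPM (2.41 ± 0.14). The CCN family was divided. CCN2 (ENSG00000118523.6, chromosome 6, 131948176 to 131951372, minus strand), connective tissue growth factor, with 3 GGAATG matches and a SMAD box in the printed window, rose from 1267 and 1518 CPM to 5781 and 5761 CPM (2.05 ± 0.15). CCN3 went from 478 and 474 CPM to 131 and 115 CPM (-1.96 ± 0.11). Of 32 proteoglycan and hyaluronan genes 14 rose and 2 fell, versican (VCAN) by 1.28 ± 0.15, the xylosyltransferase gene XYLT1 by 1.73 ± 0.13 and the heparan sulfatase gene SULF2 from 18 and 34 counts to 112 and 247 (3.55 ± 0.38). Without control 1 or TGF-β 2 the proteoglycan rises numbered 6 and 7. Of the proteoglycan genes, 9 rose and 5 fell with library totals alone.

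Matrix receptors and proteases changed with the matrix. Of 18 integrin genes 6 rose and 1 fell. ITGA5, the fibronectin receptor chain, went from 1607 and 1718 CPM to 3520 and 3690 CPM (1.12 ± 0.11), and ITGA1, a collagen receptor chain, rose by 1.51 ± 0.15. Of 34 metalloproteinases and inhibitors 11 rose and 2 fell, or 9 and 7 with library totals alone, the gelatinase gene MMP2 by 1.13 ± 0.13 and the membrane protease gene ADAM19 from 98.7 and 122.7 CPM to 549.4 and 619.3 CPM (2.40 ± 0.12). The collagenase gene MMP13 had 2 and 2 counts in control and 67 and 153 with TGF-β, a ratio of pooled normalised counts of 95.5 that rests on 4 control counts. Of 23 plasminogen, coagulation and serpin genes 7 rose and 3 fell (30.4% and 13.0%, against 7.32% and 6.5% of all genes). With library totals alone 4 rose and 4 fell. SERPINE2, a serine protease inhibitor gene, rose from 269 and 263 CPM to 1368 and 1470 CPM (2.42 ± 0.10). PLAU, encoding the urokinase activator of plasminogen, rose by 1.15 ± 0.11, with 31% of the gene's exonic sequence also annotated to another gene and strand not used in the counting. Shares of 20.7% to 25.2% apply to IL6, SP110, TGFB2 and AXIN2, and of 24.3% to VIM.

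Of 40 actin and contractile genes 27 rose and none fell, with a median of 0.50. With library totals alone 11 rose and 2 fell, and without control 1 or TGF-β 2 the rises numbered 14 and 14. Smooth muscle actin (ACTA2) went from 248 and 312 CPM to 720.2 and 871 CPM (1.51 ± 0.24), with 30.8% of the gene's exonic sequence also annotated to another gene. TAGLN (1.13 ± 0.17, 47.8% shared) and TPM1 (1.07 ± 0.14, 24.1% shared) rose too. CNN1, encoding calponin, rose by 1.22 ± 0.19 and the smooth muscle actin gene ACTG2 by 1.11 ± 0.14. The small GTPase gene RHOB went from 34.8 and 30.2 CPM to 117 and 107 CPM (1.79 ± 0.13). Of 26 YAP and TEAD targets and regulators 12 rose and 1 fell, or 7 and 6 with library totals alone, ANKRD1 by 2.09 ± 0.18. Of 20 keratin and desmosome genes 8 rose and none fell (5 rose without control 1 or control 2, and with library totals alone 5 rose and 2 fell), KRT17 from 188 and 167 CPM to 647 and 595 CPM (1.81 ± 0.10) and desmoplakin (DSP) by 1.65 ± 0.16. Of 15 cadherins and catenins 4 rose and 1 fell, and 2 rose without control 1 or TGF-β 2. The split was 2 and 2 with library totals alone. With TMM factors the shares were 26.7% and 6.67%, against 7.32% and 6.5% of all genes. N-cadherin (CDH2) rose from 555 and 584 CPM to 1268 and 1315 CPM, and E-cadherin (CDH1) had 7 and 19 counts in control and 18 and 20 with TGF-β and did not pass.

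The lists with the highest shares of falls were those of the cell cycle. Of 50 DNA replication genes 47 fell and none rose, with a median of -0.83, and of 56 mitosis genes 54 fell and none rose, with a median of -0.71. The share over all genes was 6.5%. With any 1 Mock library left out, between 38 and 47 replication genes and between 43 and 47 mitosis genes fell. MCM3, a subunit of the replicative helicase, was at 138.9 and 127.5 CPM in control and 64.7 and 59.8 CPM with TGF-β (-1.10 ± 0.10), and PCNA, the sliding clamp, went from 96.6 and 87 CPM to 46.1 and 42.6 CPM (-1.05 ± 0.10). GINS2 (-1.49 ± 0.14), the helicase cofactor gene CDC45 (-1.20 ± 0.15) and the ribonucleotide reductase gene RRM2 (-1.18 ± 0.14) fell as well. Both TGF-β libraries lay below both controls, which also held for 26.9% of all genes tested. Topoisomerase TOP2A went from 315.3 and 362.6 CPM to 177.4 and 190.8 CPM (-0.88 ± 0.10), and the mitotic kinase gene CDK1 from 44.7 and 42.8 CPM to 24 and 28.4 CPM (-0.73 ± 0.12). The kinesin genes KIF11 (-0.81 ± 0.10) and KIF15 (-1.13 ± 0.12) fell. CCNB2, a mitotic cyclin (chromosome 15, 59105126 to 59125045, plus strand), fell less, from 80.5 and 76.6 CPM to 60.7 and 54 CPM (-0.46 ± 0.11), a call lost without control 1 (edgeR, adjusted p = 0.0897) or TGF-β 2 (0.151).

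The regulators of this program were changed unevenly. Of 19 E2F, MYB and RB family genes 9 fell and none rose, and 4 to 10 fell when 1 Mock library was left out, with 4 without TGF-β 2 and 6 without control 1. E2F2 (ENSG00000007968.7, chromosome 1, 23506438 to 23531233, minus strand), an activator of S phase genes with an E2F motif of each form in its printed promoter, went from 19.1 and 12.6 CPM to 5.21 and 2.51 CPM (-2.07 ± 0.29). E2F1 fell from 50.7 and 36.6 CPM to 25.9 and 18 CPM (-0.997 ± 0.184) and the RB relative RBL1 from 31.2 and 28.4 CPM to 11.9 and 12.2 CPM (-1.31 ± 0.11). RB1 itself (-0.19 ± 0.10), E2F3 (-0.02 ± 0.10) and E2F4 (-0.17 ± 0.11) did not pass. Among the G1 cyclins, kinases and inhibitors 1 of 15 rose and 5 fell, and 2 fell without control 1 and 3 without TGF-β 2. The gene that rose was CDKN2B (ENSG00000147883.12, chromosome 9, 22002903 to 22009305, minus strand), encoding the CDK4 and CDK6 inhibitor p15, from 40.2 and 52.4 CPM to 297.1 and 351.8 CPM (2.81 ± 0.25; edgeR, adjusted p = 9.95e-06). CDKN1A, encoding p21, was at 46.5 and 39.2 CPM in control and 43.8 and 39.1 CPM with TGF-β (-0.05 ± 0.12), and MYC at 124.1 and 108.7 CPM and 134 and 110 CPM (0.07 ± 0.12). The groups of both genes overlapped, and neither passed. The inhibitor gene CDKN2C (p18) fell from 134.7 and 121.1 CPM to 61 and 51.3 CPM (-1.19 ± 0.11), and cyclin E2 (CCNE2) by 2.13 (SE 0.27), with 37.1% of the gene's exonic sequence also annotated to another gene. Cyclin D1 (CCND1) stood at 336.6 and 285.7 CPM in control and 390.3 and 388.8 CPM with TGF-β and did not pass (edgeR, adjusted p = 0.0522).

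Of 38 homologous recombination and Fanconi anaemia genes 21 fell and none rose, or 13 without control 1 and 13 without TGF-β 2. BRCA1 went from 38.6 and 39.2 CPM to 19.1 and 18.5 CPM (-1.05 ± 0.10), FANCI from 65.5 and 64.4 CPM to 32.6 and 30.9 CPM (-1.03 ± 0.10), and the exonuclease gene EXO1 fell by 1.47 (SE 0.19). In the DNA methylation and Polycomb list 8 of 20 fell and 2 rose, and 5 fell without control 1 or TGF-β 2. The nuclear lamina gene LMNB1 fell from 134.6 and 124 CPM to 58.9 and 54.1 CPM (-1.20 ± 0.10), the maintenance methylase gene DNMT1 by 0.68 (SE 0.10) and its partner UHRF1 by 0.78 (SE 0.10). TET3, which oxidises methylcytosine, rose by 0.86 ± 0.11. Of the wider p53 target list 3 of 25 rose and 3 fell, or 3 and 9 with library totals alone. That scaling gave 32 falls in the recombination list, 13 in the methylation list, 14 in the E2F list and 8 in the G1 list.

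**Figure D3:**
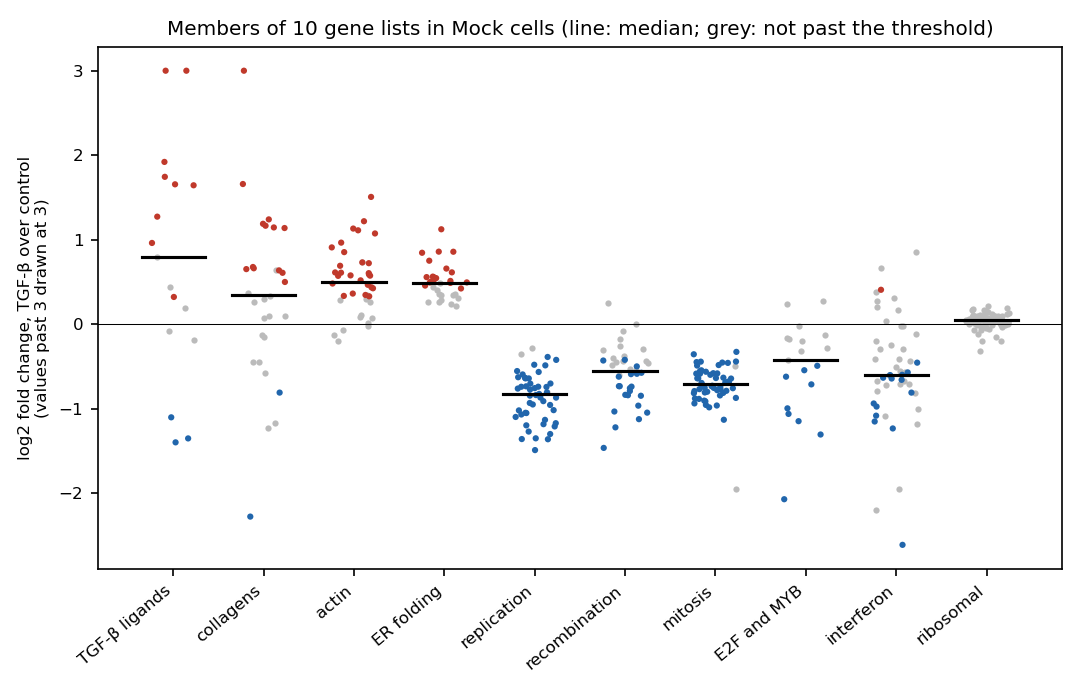
Log2 fold change in Mock cells of the members of 10 gene lists, one point per tested gene, red or blue where past the threshold and grey where not, with a line at the median. Replication (median -0.83) and mitosis (-0.71) lie below 0, actin (0.50) and ER folding (0.49) above it, and ribosomal protein genes (0.04) around it.

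The promoter motifs were counted in the RefSeq windows of 250 bases before to 50 after the start, on both strands, for 11105 of the tested genes. The E2F forms, counted together, were found in 39.0% of the 41 replication promoters, in 15.2% of the 33 recombination promoters and in 5.23% of all tested genes' promoters (3.22% of all 27305 promoters in the table). TTTGAA was found in 66.7% of the 48 mitosis promoters against 9.67% of the tested and 15.4% of all promoters, and CCAAT in 72.9% against 36.7% and 35.7%. Among all genes that fell, 10.1% had an E2F form and 17.6% had TTTGAA. Among all genes that rose, 46.5% had CAGAC against 43.2% of tested and 45.0% of all promoters, a short motif that is common everywhere. TGACTCA stood in 4.35% of the genes that rose, in 10.4% of the 48 promoters of genes that rose at least 4-fold, in 3.39% of the tested and in 4.92% of all. GGAATG stood in 7 of the 20 YAP and TEAD promoters and in 25.0% of the 36 actin promoters, against 11.1% of tested and 14.0% of all promoters. A match describes the letters in the window and is neither a bound site nor a cause of a change.

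Of 49 interferon-stimulated genes 14 fell and 1 rose, with a median of -0.60, and 8 to 12 fell when 1 Mock library was left out (8 without control 2, 8 without TGF-β 2), and 23 with library totals alone. IFIT1 (ENSG00000185745.10, chromosome 10, 89392546 to 89406487, plus strand), an antiviral RNA-binding protein gene, went from 2.51 and 5.02 CPM to 0.85 and 0.44 CPM (-2.61 ± 0.49), a call lost without TGF-β 2 (edgeR, adjusted p = 0.0508). IFIT3 went from 9.26 and 8.68 CPM to 4.82 and 3.35 CPM (-1.15 ± 0.21), SP110 fell by 1.23 (SE 0.17) and the ADP-ribosyltransferase gene PARP14 by 0.98 (SE 0.17). The interferon-stimulated response element was found in 60.5% of the 38 promoters of this list against 2.8% of tested and 3.65% of all promoters. In the NF-κB and mediator list 5 of 32 fell and 1 rose (15.6% and 3.12%, against 6.5% and 7.32% of all genes). With library totals alone 12 fell and 1 rose, and without TGF-β 2 3 fell. Macrophage colony-stimulating factor (CSF1) fell from 183.2 and 191.7 CPM to 84.5 and 75.4 CPM (-1.23 ± 0.10), the interleukin 1 receptor gene IL1R1 by 0.93 (SE 0.14), and the prostaglandin synthase gene PTGS2 rose from 3.41 and 3.49 CPM to 16.3 and 18.9 CPM (2.35 ± 0.31). Of 10 chemokine and receptor genes, CXCL8 fell from 16.2 and 14.4 CPM to 5.99 and 5.12 CPM (-1.47 ± 0.17). CXCL3 fell too, a call lost without any 1 of the libraries (edgeR, adjusted p = 0.0655 to 0.128).

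Of 32 endoplasmic reticulum folding genes 19 rose and none fell, with a median of 0.49. With library totals alone 7 rose, and without control 1 or TGF-β 2 the rises numbered 8 and 9. HSPA5, the chaperone BiP, went from 1967 and 2148 CPM to 3510 and 3414 CPM (0.75 ± 0.14), the retrieval receptor gene KDELR3 from 124.6 and 138.3 CPM to 225.6 and 246.7 CPM (0.84 ± 0.11), and the sensor ERN1 rose by 0.86 ± 0.15. Of 32 genes of serine, glycine, proline and amino acid supply 14 rose and 1 fell, or 6 to 8 rose when 1 Mock library was left out and 6 with library totals alone, where 3 fell. The transporter gene SLC1A4 rose from 198.4 and 214.7 CPM to 367.8 and 370.5 CPM (0.84 ± 0.11). Of 206 solute carriers 40 rose and 9 fell, or 17 and 39 with library totals alone, and 18 to 28 rose when 1 Mock library was left out (18 without control 1, 23 without TGF-β 2, 25 without control 2). SLC46A3, a lysosomal transporter gene, went from 8.02 and 6.84 CPM to 32.4 and 28.1 CPM (2.03 ± 0.14). Of 73 Golgi glycosyl- and sulfotransferases 14 rose and 5 fell, or 5 and 15 with library totals alone, and 6 rose without control 1 or TGF-β 2. The sialyltransferase gene ST6GAL2 went from 1.31 and 1.76 CPM to 20.6 and 31.2 CPM (4.06 ± 0.24), and GCNT1, a branching enzyme of O-glycans, fell from 19.3 and 20.9 CPM to 9.96 and 8.27 CPM (-1.15 ± 0.15). The sphingolipid enzymes SPTLC2 (0.73 ± 0.10) and SPTLC3 (-1.99 ± 0.24), subunits of the same palmitoyltransferase, moved apart, SPTLC3 from 20.8 and 19.4 CPM to 5.34 and 4.77 CPM. The sphingosine kinase gene SPHK1 rose from 34.5 and 27.1 CPM to 98.6 and 82.4 CPM (1.56 ± 0.17).

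**Figure D4:**
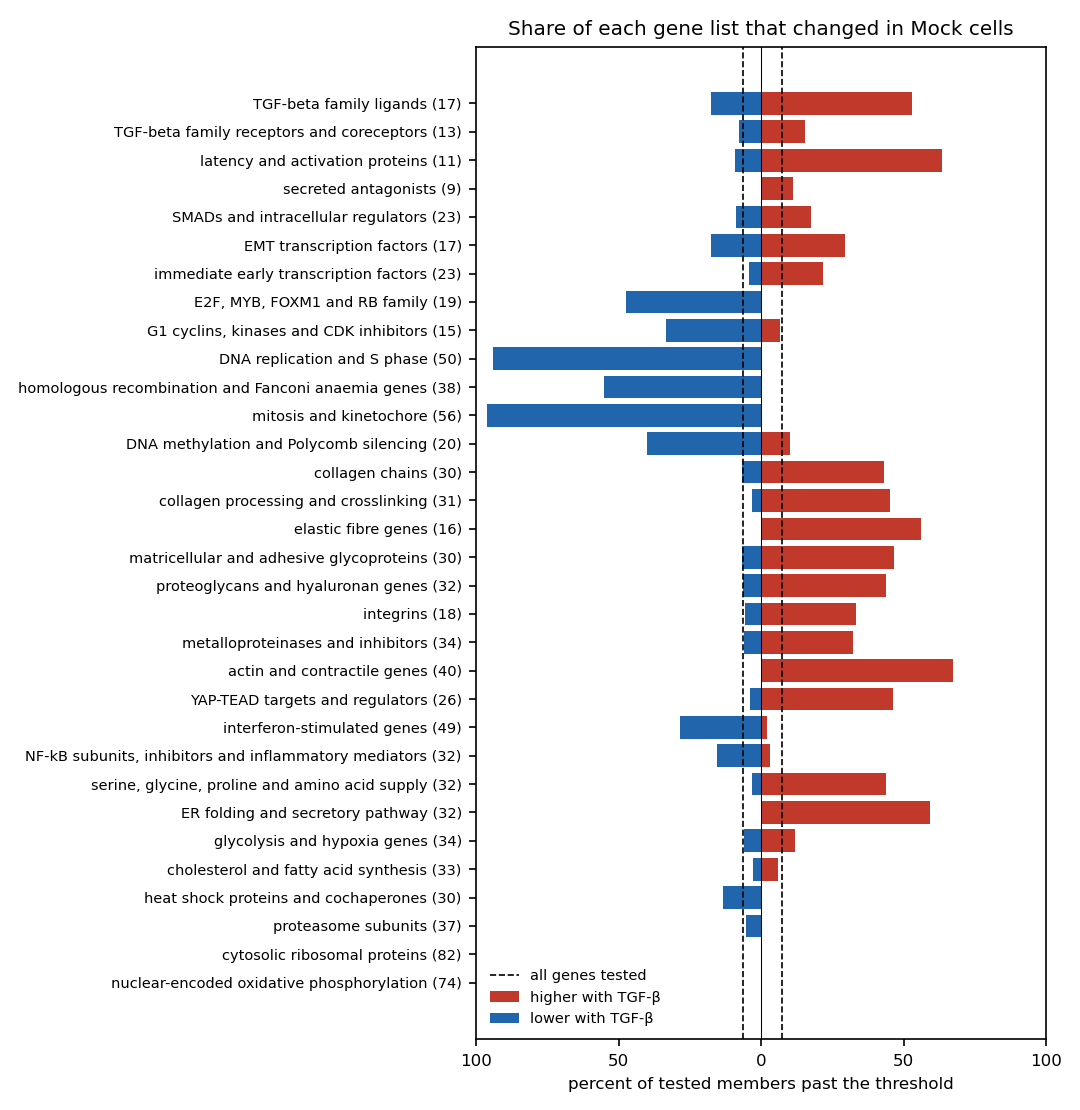
Percent of the tested members of 32 gene lists that rose (red, right) or fell (blue, left) with TGF-β in Mock cells, with the number tested in brackets and dashed lines at the share of all genes tested (7.32% higher, 6.5% lower). Replication and mitosis bars reach nearly to the left edge, latency, actin and ER folding bars reach furthest right, and ribosomal and oxidative phosphorylation genes have no bar, under TMM scaling. With library totals alone the glycolysis split turned from 4 higher and 2 lower to 1 and 18, and the cholesterol split from 2 and 1 to 0 and 5.

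Some large groups held few or no calls, while the share of falls in the heat shock list was above that of all genes. None of 82 cytosolic ribosomal protein genes (median 0.04) and none of 74 nuclear genes of oxidative phosphorylation passed, and with library totals alone 6 and 20 of them were lower. Of 37 proteasome genes 2 fell and none rose, a share of falls near that of all genes (5.41% against 6.5%), while 12 were lower with library totals alone. The 2 were the immunoproteasome genes PSMB8 (-0.85 ± 0.13), from 30.4 and 30.5 CPM to 17.8 and 16.1 CPM, and PSMB9 (-0.78 ± 0.21). PSMB10, also an immunoproteasome gene, did not pass (-0.52, edgeR, adjusted p = 0.152). The PSMB9 call was lost without control 1 (edgeR, adjusted p = 0.138) or TGF-β 2 (0.206). Of 33 cholesterol and fatty acid synthesis genes 2 rose and 1 fell (0 and 5 with library totals alone), both shares below those of all genes. Of 30 heat shock genes 4 fell and none rose, or 1 fell without control 1, 2 without TGF-β 2 and 18 with library totals alone. The shares of heat shock genes that fell and rose were 13.3% and 0%, against 6.5% and 7.32% of all genes. HSP90AA1, an inducible cytosolic chaperone, went from 1136 and 1234 CPM to 747.5 and 793 CPM (-0.62 ± 0.10). The calls of HSPA1A, HSPA1B and HSPA4L were each lost when some single libraries were left out, and the first 2 are near-identical copies between which reads cannot be safely divided. HSF2 was at 8.36 and 6.44 CPM in control and 5.4 and 5.76 CPM with TGF-β and did not pass (edgeR, adjusted p = 0.438).

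Individual genes outside these lists were among the largest changes. LRRC15, a leucine-rich repeat membrane protein gene, went from 40 and 38.8 CPM to 284.1 and 255.4 CPM (2.78 ± 0.18). TSPAN2, a tetraspanin gene, went from 1.46 and 1.96 CPM to 7.94 and 15.4 CPM (2.76 ± 0.34). SECTM1 fell from 45.3 and 38.5 CPM to 8.92 and 5.02 CPM (-2.61 ± 0.24), and FAM111B, a protease gene expressed with the cell cycle, from 14.2 and 11.6 CPM to 2.47 and 2.26 CPM (-2.44 ± 0.20). The scavenger receptor gene COLEC12 went from 34.1 and 45.5 CPM to 9.7 and 10.2 CPM (-2.00 ± 0.15), and the erythrocyte-type ankyrin gene ANK1 from 38 and 31.8 CPM to 8.46 and 7.28 CPM (-2.15 ± 0.20). Of 814 named long noncoding RNA genes tested 30 rose (3.69%) and 20 fell (2.46%), both shares below those of all genes (7.32% and 6.5%). With library totals alone 23 rose and 71 fell, and fewer than 20 fell when 1 Mock library was left out. LINC01711 rose from 2.4 and 2.69 CPM to 9.64 and 14.7 CPM (2.26 ± 0.22). TPM1-AS rose by 2.41 ± 0.26, but 78.5% of the gene's exonic sequence is also annotated to another gene and its reads cannot be told from those of the overlapping gene.

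The response of HSF2oe cells, which shares no library with that of Mock cells, was set beside it. Of the 1172 genes that rose in Mock cells, 1148 (98.0%) also had a positive change in HSF2oe cells and 596 rose there, which is 50.9% of the Mock rises and 83.7% of the 712 HSF2oe rises (4.45% of genes tested). Of the 1040 that fell, 1017 (97.8%) had a negative change and 414 fell there, 39.8% of the Mock falls and 67.8% of the 611 HSF2oe falls (3.82%; 8.26% of genes were called in either direction there, against 13.8% in Mock cells). Their median changes were 0.67 in Mock and 0.47 in HSF2oe cells for the rises and -0.68 and -0.41 for the falls. These genes were selected on their Mock values and not on their HSF2oe values. Such a choice by itself leaves smaller HSF2oe changes on average, so these medians cannot show a weaker response there. The share of all tested genes with equal sign was not computed. For the replication list the median was -0.34 in HSF2oe cells, for the mitosis list -0.30 and for the recombination list -0.25. Named genes with large Mock falls and smaller HSF2oe values included CCNE2 (-2.13 and -0.50), FAM111B (-2.44 and -0.91) and GINS2 (-1.49 and -0.29). The limit of a choice on Mock values applies to them too. IL11 (2.68 and 2.60), ADAM19 (2.40 and 2.44) and SPTLC3 (-1.99 and -2.26) had like values in both. The test of the difference itself called 0 genes in edgeR (0% of 16008, 977 at an unadjusted p below 0.05) and 23 in DESeq2, so no single gene's response is said here to differ between the transfections.

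**Figure D5:**
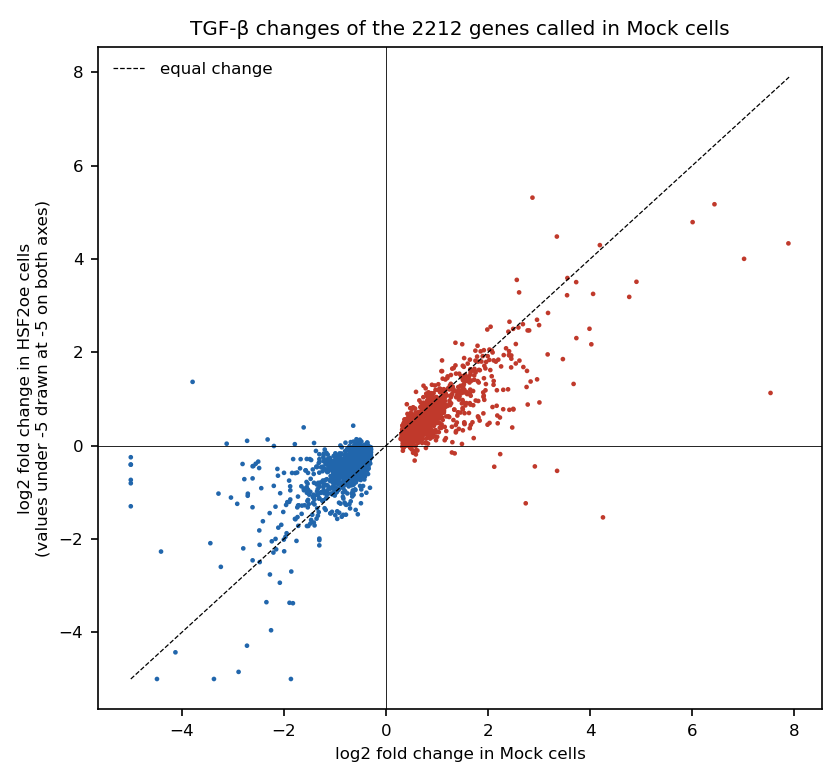
Log2 fold change with TGF-β in Mock cells (x axis) and in HSF2oe cells (y axis) of the 2212 genes called in Mock cells, red where higher and blue where lower in Mock, with the dashed line at equal change. The points lie mostly in the 2 quadrants of equal sign (1148 of 1172 and 1017 of 1040), a share not computed for all genes tested. Many lie nearer 0 on the y axis, and the genes were chosen on their Mock values.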

How the data were processed

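Poly(A) RNA of 8 libraries was sequenced. The authors deposited gene counts made with featureCounts 2.0.1 on GENCODE release 38, without a strand option, per the file headers. The submitters' processing notes list STAR 2.7.9a and edgeR 3.34.1. A second deposited table holds log2 CPM for 13169 genes and served only as an alternative. Of 60708 genes in the count table, filterByExpr kept 16008. Counts were fitted with edgeR 4.0.16 (R 4.3.3): TMM factors, a mean per group over all 8 libraries, a quasi-likelihood test, 2-sided, Benjamini-Hochberg over the genes tested, threshold 0.05. The common biological coefficient of variation was 9.91%. Standard errors, obtained from the fold change and the F statistic, can lie below the counting error at low counts. TPM values were computed here from counts and the table's gene lengths. Shared exonic bases come from the table's exon coordinates. The fit was also run on counts simulated from its own means and spread, without a shared batch. That run checks the code and cannot test those assumptions. Groups follow titles.

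The members and the 60 gene lists were chosen with earlier results of these data known. Named genes were a fixed set of pathway genes, up to 15 rises and 15 falls by size (adjusted p below 0.05, mean log2 CPM of at least 1, groups apart), up to 6 of each by abundance and up to 4 per list by p. Another 60 list members, and a few uncalled ones, were named after their values were seen, and not all genes taken by the rule are printed. Alternatives were DESeq2 1.42.0, limma 3.58.1 on the deposited values, other scalings and filters, thinned counts, Mock libraries alone, a replicate block and leaving out each library. RefSeq promoters (GRCh38.p14) matched 11105 tested genes by symbol.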

Additional observations from a re-analysis of the deposited data

How the results depend on the processing

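In Mock cells the call count (2212) moved by more than 1.5 times under 4 settings. Library totals alone gave 4493 calls (608 higher, 3885 lower), and the replicate block gave 3350 (1766 and 1584), with the NF-κB list at 4 higher and 9 lower in place of 1 and 5. Leaving out 1 Mock library gave 1143 to 1668 calls (583 to 930 higher, 529 to 738 lower), and moved it that far without TGF-β 2 (1143) and without control 1 (1162). The test of the difference from HSF2oe cells called 0 genes in edgeR, 23 in DESeq2, 83 without the low-count filter and 78 with the replicate block. Same-numbered libraries deviated together by correlations of 0.0498 to 0.163, all positive. The labels do not say that the number marks a shared batch. Whether it does was not tested, and the main fit has no replicate block. Of 287 named genes called, 220 kept the call under all 13 alternatives and 67 lost it at least once, 51 without control 1 and 49 without TGF-β 2. No called gene reversed. Uncalled genes changed sign with library totals alone (NBL1 -0.0218, ID3 -0.106, RPS27A -0.0901, PSMD2 -0.0248, RPL9 -0.0731, NDUFA4 -0.0143, NDUFB9 -0.0384, MYC -0.195, TGFBR1 -0.109, RPL27A -0.0794, KRT18 -0.16) and when 1 Mock library was left out, where CD14 ran from -0.81 to 0.0776, CDKN1A from -0.176 to 0.0678, MYC from -0.0833 to 0.202, TGFBR1 from -0.103 to 0.396, FOXA1 from -0.38 to 0.0606 and CD68 from -0.795 to 0.0814. The cause was not tested. With 2 libraries per group, small changes and genes near 3 counts are the least certain.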

Other observations

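Of 61 potassium, calcium and TRP channel genes 7 rose and 3 fell (11.5% and 4.92%, against 7.32% and 6.5% of all genes), or 7 and 10 with library totals alone, and 4 rose without TGF-β 2. KCNG1, a modifier subunit of voltage-gated potassium channels, went from 47.2 and 51.6 CPM to 101 and 98.5 CPM (1.01 ± 0.11), the cation channel gene TRPC4 from 14.4 and 16.1 CPM to 30.4 and 32.9 CPM (1.05 ± 0.11), and the potassium channel gene KCNK2 fell from 30.9 and 28.4 CPM to 16.1 and 13.7 CPM (-0.996 ± 0.134). Of 43 protocadherins 6 rose and 2 fell, and 1 rose without control 1. The protocadherin shares with all libraries were 14.0% and 4.65%, against 7.32% and 6.5% of all genes. PCDH1 rose from 1.46 and 1.45 CPM to 3.78 and 3.94 CPM (1.41 ± 0.26), while PCDH18 fell from 87.3 and 104 CPM to 61.6 and 67.45 CPM (-0.57 ± 0.11).

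MAPK feedback genes were divided: of 16, DUSP1 (0.82 ± 0.15) and DUSP2 (1.66 ± 0.30) rose and SPRY1 (-1.72 ± 0.28) and DUSP4 (-1.65 ± 0.51) fell, the DUSP4 call being lost in DESeq2 (adjusted p = 0.0739) and without control 1 (edgeR, adjusted p = 0.246), TGF-β 1 (0.12) or TGF-β 2 (0.23). The MAPK feedback shares were 12.5% in each direction, against 7.32% and 6.5% of all genes. Of 21 NRF2 targets and metallothioneins 3 rose and 3 fell (14.3% each), or 1 and 10 with library totals alone. NQO1, a quinone reductase gene, went from 475 and 388 CPM to 280 and 234 CPM (-0.75 ± 0.12). NOX4, an oxidase gene, had 0 and 4 counts in control and 14 and 14 with TGF-β, a ratio of pooled normalised counts of 12.2 that rests on 4 control counts, and its call was lost without control 1, TGF-β 1 or TGF-β 2. Of 455 ZNF genes 11 rose and 10 fell (2.42% and 2.2%), both shares below those of all genes (7.32% and 6.5%). With library totals alone 4 rose and 63 fell, and fewer passed in either direction without control 1.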
